A study of Mus musculus with 3 samples.

Results

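The genes described are 31 interferon-stimulated genes, taken from a fixed list of symbols and matched by symbol among the 31053 genes of the deposited count tables, where all 31 were found. They were measured by droplet single-cell RNA sequencing in cochlear explants of rtTA/tet-on-Myc/tet-on-NICD mice aged 4 to 6 weeks, in which doxycycline (Dox) switches on Myc and the intracellular domain of Notch1 (NICD). The control library came from 4 pooled cultures given sterile water, and each of the 2 Dox libraries came from 4 pooled cultures given Dox at 2 µg/ml for 4 days. Both groups carried the transgenes, the labels used here do not name the promoter driving rtTA, and no library of cultures given Dox without the transgenes was analysed here, so Dox itself and the transgenes cannot be told apart. Only 1 control library exists, so every test below compares it with 2 Dox libraries. An exact permutation test of 1 against 2 libraries cannot go below p = 0.333, and the p-values printed come from a model fitted across all genes.

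Interferons are secreted proteins that bind receptors on nearby cells and act through the kinases JAK1, JAK2 and TYK2. Type I interferon brings STAT2 and IRF9 into a complex that binds the interferon-stimulated response element, whereas interferon gamma acts mainly at the gamma-activated site. The induced genes include sensors of viral RNA, transcription factors that extend the response, antiviral effectors, and guanylate-binding and immunity-related GTPases.

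The promoters of 5 members are shown because they carry these short elements next to genes whose levels are described below. RefSeq promoter windows on GRCm38.p6, from 250 bases before to 50 bases after the start of transcription, were available for 25 of the 31 members. The response element, searched on both strands as GAAA, any 2 bases and GAAA again, was present in windows of 15 of those 25 members (60%) and of 3.99% of all 27025 genes with a window. The pattern TTCNNNGAA, which reads the same on both strands and stands for the gamma-activated site, was present in 8 of 25 members (32%) and 9.55% of all genes. Both patterns were found in 5 members and neither in 7. A match is a description of letters and shows no binding. The stretches of 120 bases below lie upstream of the start sites of Isg15 (chr4:156200855-156200974, minus strand), Ifit3 (chr19:34583317-34583436, plus strand), Ifit1 (chr19:34640714-34640833, plus strand), Gbp3 (chr3:142559915-142560034, plus strand) and Irf1 (chr11:53769833-53769952, plus strand). Capitals mark the response element in the first 4, in either orientation and merged where matches overlap, and the gamma-activated site in Irf1.
Isg15: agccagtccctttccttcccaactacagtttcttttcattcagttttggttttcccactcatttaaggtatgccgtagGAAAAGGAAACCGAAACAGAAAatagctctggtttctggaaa
Ifit3: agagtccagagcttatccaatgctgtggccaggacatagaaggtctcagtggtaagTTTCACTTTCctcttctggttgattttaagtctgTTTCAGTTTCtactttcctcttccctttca
Ifit1: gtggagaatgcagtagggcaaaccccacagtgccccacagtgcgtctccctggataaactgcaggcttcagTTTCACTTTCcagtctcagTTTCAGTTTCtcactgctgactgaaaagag
Gbp3: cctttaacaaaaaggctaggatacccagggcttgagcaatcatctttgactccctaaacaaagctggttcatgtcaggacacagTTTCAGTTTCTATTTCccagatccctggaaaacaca
Irf1: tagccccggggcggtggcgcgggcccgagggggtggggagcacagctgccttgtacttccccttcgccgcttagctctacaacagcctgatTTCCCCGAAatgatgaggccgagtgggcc

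The libraries held 512 (control), 788 (Dox replicate 1) and 1095 (Dox replicate 2) barcodes, with 5436731, 20309102 and 33385927 unique molecular identifiers (UMIs). Of these barcodes, 125 occurred in more than 1 library. Their 193 shallower copies, each 59.5-fold to 386-fold below the deepest one, were left out, and counts of calls are given with and without them. Filters on genes detected and mitochondrial share left 283, 595 and 925 cells (median UMIs per cell 12829, 20441 and 29877), which formed 20 clusters. Of these, 14 were named from marker genes, and the 6 unnamed ones held 9.19%, 38.8% and 37.3% of the cells. Although the labels name sensory epithelium, the cells also included stroma, pericytes, glia and macrophages. The epithelial class held 54, 158 and 347 cells in the control, Dox replicate 1 and Dox replicate 2, and the stromal class held 116, 5 and 78. The unnamed clusters 7 and 11, with Epcam in 100% of their cells and 0 control cells, were left out of the epithelial class, and with all clusters in which most cells held Epcam it had 69, 323 and 618 cells. In epithelium, Notch1 measured 57.9, 518 and 374 CPM (UMIs per 1000000 UMIs of the class and library, scaled by TMM, the trimmed mean of M values) in the same order (adjusted p = 0.00436), and Myc measured 16.0, 55.6 and 60.2 (adjusted p = 0.0129, both edgeR quasi-likelihood test), in the direction of the labels. In stroma Notch1 measured 13.3, 50.6 and 17.4 and Myc 52.3, 15.2 and 49.7. Neither was called, but that fit called 0 of 10964 genes, so the lack of a call decides nothing. In macrophage-like cells Notch1 measured 66.7, 176 and 162 and Myc 52.8, 24.7 and 42.4, and neither was called. In glia Notch1 measured 58.4, 646 and 364 (adjusted p = 0.00283) and Myc 26.3, 105 and 69.8 (adjusted p = 0.0562, both edgeR quasi-likelihood test).

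In epithelium the interferon-stimulated genes were lower in the Dox cultures. Of the 31 members, 30 passed the filter on low counts, 15 of these fell and 0 rose at an adjusted p of 0.05 or less (edgeR quasi-likelihood test, Benjamini-Hochberg adjustment over 13180 genes). Over all genes tested, 10.3% were called, 4.45% lower and 5.85% higher. The median log2 difference (Dox minus control) of the 30 members was -1.91, beside 0.06 for all genes tested. A gene that passes the filter through 1 library alone had to differ, so these figures describe the members that passed and not the list as a whole. On plain CPM, without the TMM factor, 29 of the 30 members with at least 30 UMIs were below the control in both Dox libraries, as were 53.9% of all such genes, and 0 were above in both, beside 34.1%. Dox replicate 2 was below Dox replicate 1 for 27 of the 30, and for 49.6% of all such genes.

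Levels below are TMM-scaled CPM in the order control, Dox replicate 1 and Dox replicate 2. Of the 3 RNA sensors, Ifih1, which encodes the double-stranded RNA sensor MDA5, measured 41.0, 15.8 and 11.5 and fell 3.04-fold (log2 difference -1.60, SE 0.30, adjusted p = 0.0279). Ddx58, which encodes the related sensor RIG-I, measured 41.5, 22.2 and 20.1 and did not pass the threshold (adjusted p = 0.0551). Dhx58, a regulator of these sensors, was scarce at 7.49, 1.57 and 1.19 and likewise missed the threshold (adjusted p = 0.0857). All 3 sensors were highest in the control library.

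Among the 5 signalling genes and transcription factors, Irf7, Stat2 and Usp18 fell. Irf7, which amplifies type I interferon production, measured 76.4 in the control, 5.49 in Dox replicate 1 and 2.05 in Dox replicate 2, a 22.1-fold fall (log2 difference -4.46, SE 0.48, adjusted p = 0.006). Stat2, a partner of IRF9, measured 29.0, 8.23 and 4.36 (adjusted p = 0.0321). Usp18, a protease that removes ISG15 and dampens receptor signalling, measured 10.5, 2.61 and 0.066 (adjusted p = 0.0382), from only 21, 20 and 1 UMIs. The other 2 genes did not pass. Irf9 measured 61.4, 55.6 and 32.5 (adjusted p = 0.419), with only Dox replicate 2 well below the control. Irf1, a transcription factor that responds strongly to interferon gamma, measured 16.5, 15.0 and 13.5 (adjusted p = 0.695).

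Of the 10 antiviral effectors, 5 fell. Ifit3, of a family that binds viral RNA, rested on 96, 8 and 3 UMIs and measured 48.0, 1.04 and 0.198, a 93.7-fold fall (log2 difference -6.55, SE 0.39, adjusted p = 0.00353). Ifit3 passed the count filter through the control alone and could only be called lower. Its neighbour Ifit1 measured 70.9, 14.1 and 3.17 (adjusted p = 0.047). Reads from Ifit3 and the near-identical Ifit3b can be split between them in counting, and Ifit3b measured 15.0, 0.261 and 0.198 (adjusted p = 0.00821). The most abundant members were membrane proteins that act against enveloped viruses. Ifitm3, which blocks viral fusion, measured 1390, 509 and 608 and fell 2.49-fold (log2 difference -1.32, SE 0.16, adjusted p = 0.00865). Bst2, which tethers budding virions, measured 863, 296 and 293 and fell 2.93-fold (adjusted p = 0.00396). Oasl2, of the oligoadenylate synthetase family, measured 70.4, 24.2 and 12.9 (adjusted p = 0.032). Isg15, the ubiquitin-like modifier whose promoter holds 3 overlapping response elements, measured 84.4, 51.2 and 15.8. The Dox libraries differed about as much from each other as from the control there, and the gene did not pass (log2 difference -1.36, SE 0.62, adjusted p = 0.217). Rsad2 (viperin), Oas1a and Ifit2 were highest in the control without passing, and Cmpk2, a nucleotide kinase next to Rsad2 on chromosome 12, was scarce at 3, 12 and 29 UMIs.

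Among the 6 GTPases, 5 passed the filter and 2 fell. Gbp3, a guanylate-binding protein, measured 13.0, 0.914 and 0.726, a 16.1-fold fall (adjusted p = 0.0226). With 26, 7 and 11 UMIs, Gbp3 passed the count filter through the control alone and could only be called lower. Irgm1, which regulates the immunity-related GTPases, measured 54.5, 21.4 and 12.1 (adjusted p = 0.0398). Iigp1, an effector of that family, measured 28.5, 8.75 and 2.77 without passing (adjusted p = 0.0715), while Gbp7 measured 14.0, 6.40 and 4.82 (adjusted p = 0.1) and Igtp 6.49, 4.96 and 2.11 (adjusted p = 0.478). Gbp2 had 2, 2 and 3 UMIs and could not be tested. The Gbp genes are close paralogs, so their counts are uncertain one by one.

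Of the 7 remaining members, 4 fell. Lgals3bp, which encodes a secreted glycoprotein that binds galectins, measured 157, 39.8 and 29.0 and fell 4.59-fold (log2 difference -2.20, SE 0.24, adjusted p = 0.00602). Xaf1, a partner of the apoptosis inhibitor XIAP, measured 49.5, 14.2 and 5.88 (adjusted p = 0.0394), and Parp14, an ADP-ribosyltransferase, 36.0, 11.5 and 8.65 (adjusted p = 0.0199). Ifi27, a mitochondrial protein, measured 338, 146 and 95.2 (adjusted p = 0.0248). Rtp4, a receptor chaperone, measured 49.5, 18.3 and 5.88 (adjusted p = 0.0884) and Ifi44 13.5, 7.44 and 1.58 (adjusted p = 0.291). Ifi35 was level at 43.0, 46.2 and 39.3 (log2 difference -0.01, adjusted p = 0.985). For all 15 members that fell, the control lay above both Dox libraries, which their being called lower in these same libraries nearly fixes. For 14 of them, Ifitm3 excepted, Dox replicate 2 was the lowest. The folds ranged from 2.49 to 93.7.

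**Figure D1:**
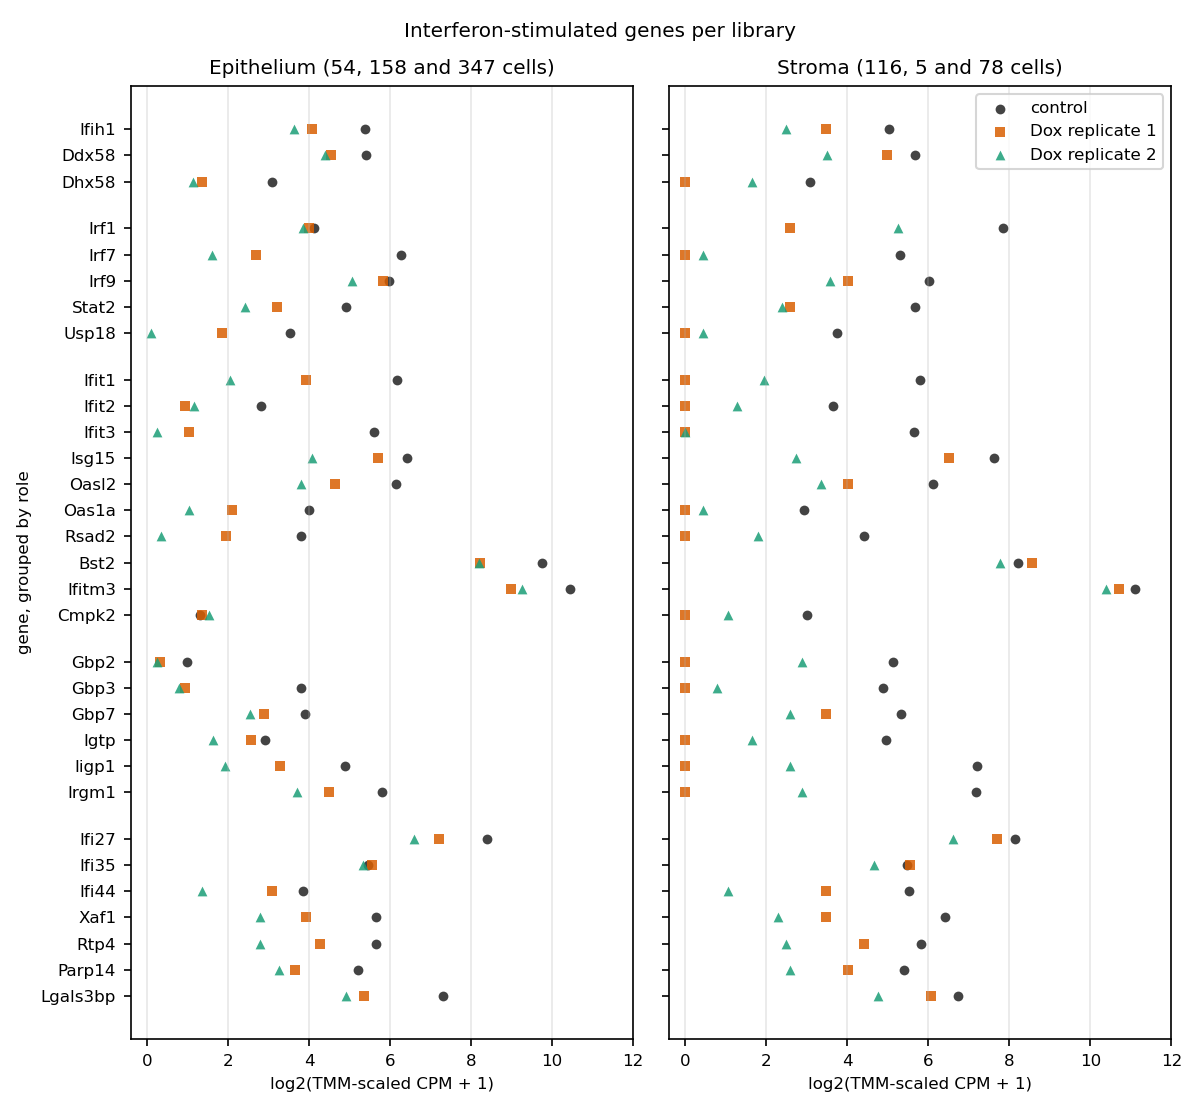
Each row is 1 gene, grouped by role, and each point is 1 library, placed on the horizontal axis at log2(TMM-scaled CPM + 1), in epithelium (left) and stroma (right). In epithelium the control point lies to the right of both Dox points for every one of the 15 members that fell, from Ifitm3 at 1390 against 509 and 608 to Ifit3 at 48.0 against 1.04 and 0.198. These members were picked as called lower in the same libraries, which nearly fixes that order.

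The number of epithelial calls depended on how cells were grouped and genes filtered, while 0 members were called higher in any setting tried. Without the filter on low counts 0 members were called (0 of all genes, 22 members at an unadjusted p of 0.05 or less). The count was 4 (Ifit3, Irf7, Bst2 and Lgals3bp) when the clusters were built without the members and the other pathway genes (3.19% of all genes called), and 7 when each library was clustered alone (6.02% of all genes). With all Epcam clusters 14 were called (18.8% of all genes). With the shallower copies of shared barcodes kept, 14 members were called in epithelium (13.5% of all genes), 3 in glia (7.22%), 1 in macrophage-like cells (1.99%) and 0 in stroma (0%). Scaling by total counts moved the median of all genes by -0.27 and the split of calls from 771 higher and 586 lower to 491 higher and 1124 lower. The members' median minus that of all genes was -1.97 under either scaling. A change of scaling shifts all genes nearly alike, so this figure was bound to stay and is no check. With total counts 17 members were called lower (8.53% of all genes called lower).

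The epithelial class was made up differently in each library. Cluster 3, led by Vmo1 and Otx2 and Reissner-like by its markers, gave 50.2% of the control UMIs, 16.5% of those of Dox replicate 1 and 25.2% of those of Dox replicate 2. Cluster 1, led by Gabrp and Alox15, gave 6.45%, 34.6% and 40.9%. For this reason the members were also compared within clusters, on plain CPM and without a test. In cluster 3 (17, 21 and 89 cells), 20 of 22 members with at least 30 UMIs were below the control in both Dox libraries, beside 47.9% of all such genes, and 1 was above in both, beside 37.8%. Irf7 measured 152, 11.2 and 3.43 there, Bst2 1560, 358 and 348, and Ifitm3 2742, 867 and 951. In the sulcus-like cluster 10 (11, 37 and 46 cells), led by Epyc and Aqp4, the count was 19 of 22, beside 45.9%, with 1 above in both, beside 39.6%, and with Ifit3 at 93.6, 3.06 and 1.42. With clusters 3, 5 and 10 weighted equally, 27 of 27 members with at least 30 UMIs were below the control in both Dox libraries, beside 56.8% of all such genes, and the median log2 difference over the 31 members was -1.82. Cluster 1 had 3 control cells, and 8 of its 17 members were below and 7 above, beside 44.8% and 48.8% of all genes.

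The supporting cell-like cells (cluster 5, led by Ceacam16, Gjb6, Rorb and Gjb2) numbered 23, 55 and 25 and were tested alone. Of the 15 members that passed the filter there, 2 fell and 1 rose, beside 9.95% of 8876 genes called (3.38% lower and 6.57% higher). Ifit1 measured 103, 10.8 and 7.13 on the TMM scale (log2 difference -3.41, SE 0.43, adjusted p = 0.000149), and Oasl2 measured 57.1, 17.8 and 11.4 (adjusted p = 0.0232). Bst2 moved the other way, from 128 in the control to 252 and 227 (log2 difference 0.91, SE 0.26, adjusted p = 0.0383). This rise was called in 3 of 6 settings, and not with total count scaling (log2 difference 0.41), without the count filter or with DESeq2 (adjusted p = 0.371, the highest of the 6, beside 0.0323 for the lowest). Rtp4 (38.1, 11.9 and 7.13, adjusted p = 0.0626) and Ddx58 (32.6, 10.8 and 8.56, adjusted p = 0.112) did not pass. Ifi27 measured 106, 75.0 and 28.5 and Irf9 51.7, 50.2 and 38.5, neither passing. The members' median was -1.01, beside 0.02 for all genes, and 8 of 12 members with at least 30 UMIs were below the control in both Dox libraries, beside 61.5% of all such genes, with 2 above in both, beside 26.2%. Under total count scaling, which moved the median of all genes by -0.50, 6 members were called lower and 0 higher, beside 16.5% of all genes called lower.

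Markers of other cells were low in the epithelial class but not equal between libraries. Summed fibroblast markers measured 447, 116 and 120 plain CPM, with 9 of 19 markers highest in the control and 7 at 0 there, Col1a1 and Col3a1 among them. The 14 macrophage markers summed to 52.5, 8.72 and 10.1, with 4 highest in the control and 9, including C1qa, C1qb, C1qc and Csf1r, at 0. Their part in the members' differences was not tested. The 28 members other than the 3 abundant ones (Ifitm3, Bst2 and Ifi27) summed to 1198, 382 and 220 in the same class. Cells of little Malat1, a nuclear RNA, made up 25.9%, 23.4% and 5.48% of the class, and without them 15 members were again called lower.

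The difference was spread over many cells. Per 10000 UMIs of a cell, the 28 members gave a median of 8.31 UMIs in control epithelial cells, 2.84 in Dox replicate 1 and 1.91 in Dox replicate 2. When every cell was thinned to 1000 UMIs, 31 of 52 control cells (59.6%) held any UMI of the 28 genes, beside 45 of 151 (29.8%) and 66 of 340 (19.4%), with 2, 7 and 7 shallower cells left out. In glia, thinned alike, 20%, 14.3% and 13.7% of the cells held one. The 3 control epithelial cells with the most member UMIs carried 25.5% of the members' UMIs and 17.4% of all UMIs.

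**Figure D2:**
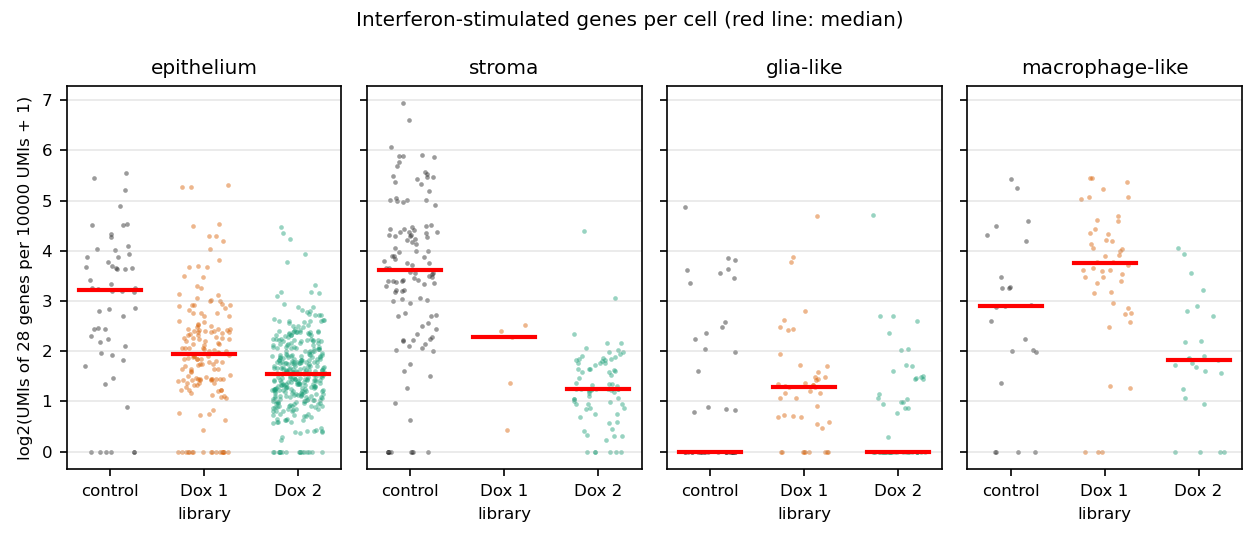
Each point is 1 cell, placed on the vertical axis at log2(UMIs of the 28 genes per 10000 UMIs + 1), by library and for 4 cell classes, and the red line is the median over cells. The epithelial medians step from 8.31 to 2.84 and 1.91 and the stromal medians from 11.3 to 3.87 and 1.39, while Dox replicate 1 has the highest median in macrophage-like cells at 12.5.

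In stroma, the cells with fibroblast and fibrocyte markers, every member was lower in the Dox cells by the fitted value, but the comparison rests on different cells in each group. The control stroma consisted of cluster 8 (97 cells, led by Tnfrsf11b and Prg4), which had 0 cells in either Dox library and gave 89.6% of the control's stromal UMIs, and of 19 cells of cluster 6 (Tnc, Dcn, Col3a1 and the otic fibrocyte gene Pou3f4). The Dox stroma consisted of cluster 6 alone, with 5 and 78 cells. Treatment and cell population therefore cannot be told apart in the stromal class. Because Dox replicate 1 had under 20 stromal cells, the fit below was added after seeing the data. All 31 members passed the filter, 31 of 31 log2 differences were negative and their median was -2.94, beside -0.14 for all 10964 genes. A member that passed through the control alone had to be negative, such as Ifit3 with 110, 0 and 0 UMIs or Ifit1 with 123, 0 and 8. The filter therefore fixed part of these figures. No member was called by edgeR's quasi-likelihood test (0% of all genes, smallest adjusted p 0.175), while 26 members had an unadjusted p of 0.05 or less. DESeq2 called 3 lower (Ifit3, Iigp1 and Irgm1), with 0.538% of all genes called, and the legacy quasi-likelihood fit of edgeR called 23, with 9.38% of all genes called. Of 27 members with at least 30 UMIs, 26 were below the control in both Dox libraries, beside 49.9% of all such genes, and 0 were above in both, beside 26.1%.

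The values by library show the size of the stromal gap, again in TMM-scaled CPM and in the order control, Dox replicate 1, Dox replicate 2. Ifit3 had 110, 0 and 0 UMIs, at least 54.4-fold lower when 3 UMIs are allowed over both Dox libraries. Irf7 measured 38.5, 0 and 0.355, Gbp3 28.3, 0 and 0.71, and Iigp1 146, 0 and 4.97 with 330, 0 and 14 UMIs. Irf1, which was level in epithelium, measured 228, 5.06 and 37.3 here (log2 difference -3.03, SE 0.41, adjusted p = 0.175). Isg15 measured 197, 91.0 and 5.68, so that the Dox libraries were far apart. Of the GTPases Irgm1 measured 143, 0 and 6.39 and Gbp2 34.1, 0 and 6.39. The abundant members showed smaller gaps, with Ifitm3 at 2199, 1684 and 1346, Ifi27 at 279, 207 and 96.2 and Lgals3bp at 106, 65.7 and 26.3. Bst2, at 295, 379 and 217, overlapped between the groups. By role, the median log2 difference was -4.31 for the GTPases, -3.50 for signalling genes, -2.93 for effectors, -2.64 for the remaining members and -1.93 for sensors.

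Within cluster 6, the only stromal cluster with cells in every library, the gap was smaller. The 28 members summed to 361, 338 and 176 plain CPM there, compared with 1800, 338 and 176 for the whole stromal class. Of 23 members with UMIs in the control and in a Dox library, 12 were below the control in both Dox libraries and 2 above, and the median log2 difference was -0.69. Members at 0 in the control, such as Ifit1 and Iigp1, could not lie below it and were left out. These figures therefore do not describe the whole list, and the same condition was not applied to all genes. With at least 30 UMIs, 4 of 10 members were below in both, beside 41.4% of all such genes, and 2 above, beside 35.9%. Irf1 measured 31.6, 4.90 and 35.7 in cluster 6, Ifitm3 1300, 1631 and 1289, and Bst2 262, 367 and 208. The 19 control cells were shallow, at a median of 3140 UMIs beside 28368 and 34996. In cluster 8 the 28 members summed to 1968, and within the control library 26 of 26 members with at least 30 UMIs in both clusters together were higher in cluster 8 than in cluster 6, beside 55.8% of all such genes. Irf1 measured 267 in cluster 8, Isg15 231, Iigp1 174 and Irgm1 165. The fibroblast markers, summed over the whole stromal class, also differed between libraries at 11683, 5017 and 2898, with 16 of 19 highest in the control and none at 0. Macrophage markers there summed to 15.1, 0 and 5.78 (10 of 14 highest in the control, 4 at 0), endothelium markers to 513, 284 and 206 (4 of 12 highest in the control, 2 at 0) and epithelium markers to 421, 186 and 124 (14 of 34 highest in the control, 12 at 0). Their part in the members' differences was not tested.

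**Figure D3:**
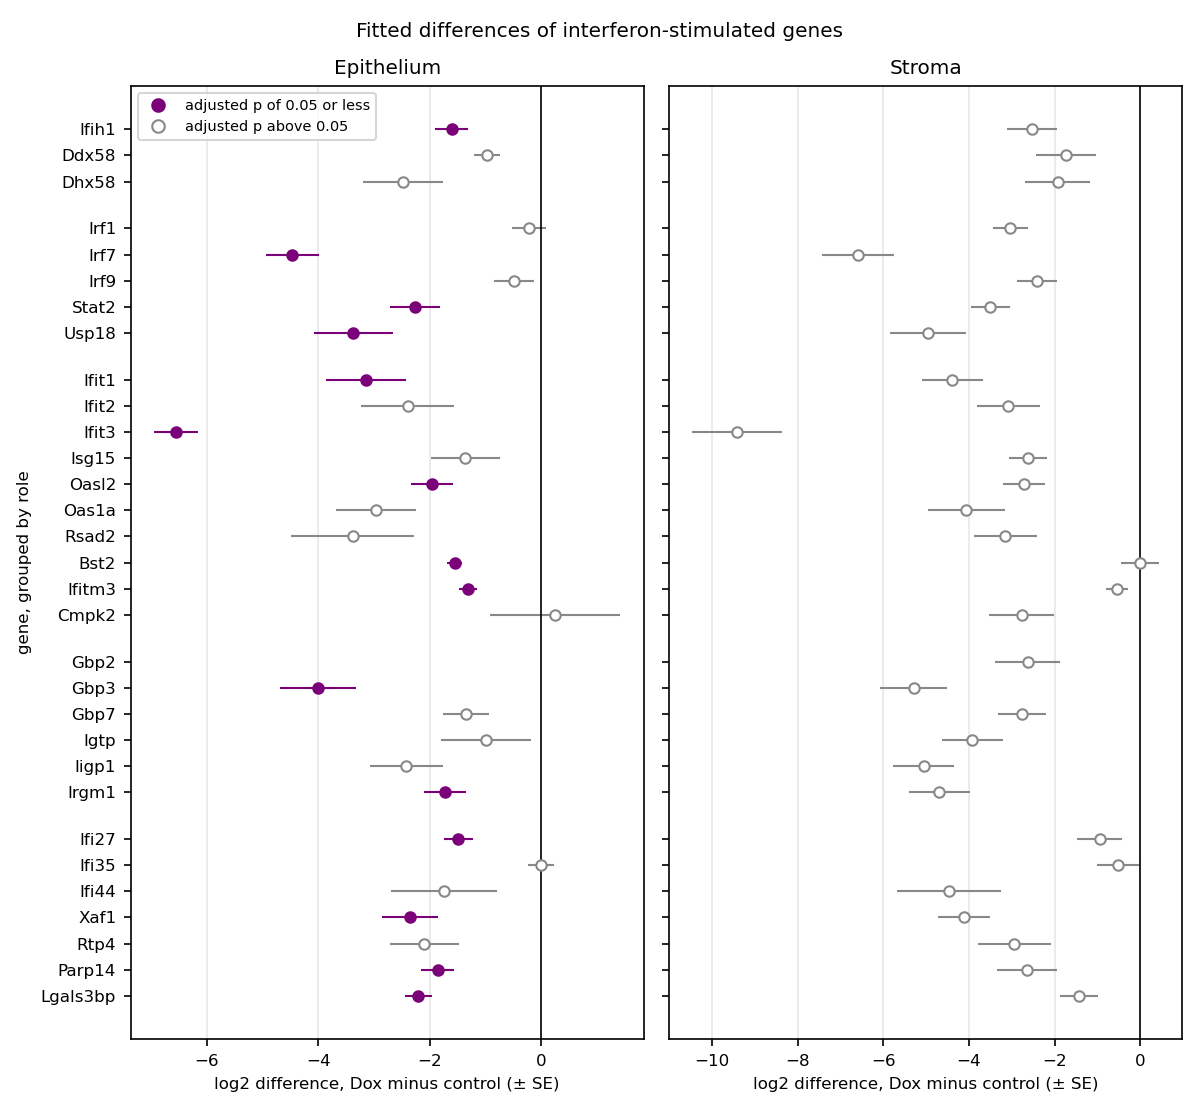
Points give the fitted log2 difference (Dox minus control) of each member with its SE in epithelium and stroma, and the vertical line marks 0. Nearly all epithelial points lie left of 0 with a median of -1.91 and all stromal points do with a median of -2.94, while Irf1 stands at -0.22 in epithelium and at -3.03 in stroma.

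Whether the Dox difference itself differed between stroma and epithelium was tested with an interaction term, in a fit that was also below the minimum of 20 cells. Of 31 members, 0 were called by edgeR's quasi-likelihood test, as were 0% of 12720 genes, and 6 had an unadjusted p of 0.05 or less (DESeq2 called 0). Irf1 had the smallest p, with the log2 difference of stroma minus that of epithelium at -2.88 (SE 0.47, adjusted p = 0.749). Bst2 had the opposite sign at 1.45 (adjusted p = 0.749). The legacy fit called 3 members, Irf1, Bst2 and Irgm1, beside 1.96% of all genes. The change of cluster within stroma, given above, enters this term too.

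In the other classes the members did not share 1 direction. Glia (43, 45 and 55 cells) had 10 members past the filter, of which 2 fell, beside 4.89% of 7750 genes called (2.89% lower). Xaf1 measured 117, 17.5 and 23.9 on the TMM scale (log2 difference -2.51, SE 0.39, adjusted p = 0.00379) and Ifi27 205, 84.8 and 29.4 (adjusted p = 0.0353). DESeq2 called neither. Parp14 measured 38.0, 2.69 and 5.51 (adjusted p = 0.0504), Bst2 87.7, 215 and 147 (adjusted p = 0.114) and Ifitm3 248, 343 and 224. The glial median was -0.85, beside 0.03 for all genes, and 3 of 6 members with at least 30 UMIs were below the control in both Dox libraries, beside 49.3% of all such genes, and 2 were above, beside 32.1%. Median depth was 5487, 15808 and 9782 UMIs per glial cell, and 37.2%, 13.3% and 10.9% of the glial cells had little Malat1. Epithelium markers summed to 556, 262 and 255 plain CPM in glia (4 of 34 highest in the control, 26 at 0 there) and fibroblast markers to 1622, 1483 and 1154 (2 of 19 highest in the control, 11 at 0). Their part in the glial values was not tested.

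Macrophage-like cells (23, 46 and 25 cells) gave the only member that rose apart from Bst2 in supporting cell-like cells. Of 23 members tested there, 1 rose and 0 fell, beside 1.21% of 7742 genes called (0.62% higher and 0.594% lower). Gbp2 had 0, 49 and 26 UMIs, or 0, 67.2 and 39.4 CPM on the TMM scale (adjusted p = 0.00588), which is at least 6.14-fold higher with 3 UMIs allowed in the control. DESeq2 did not call it. With 0 control UMIs, Gbp2 passed the count filter through the Dox libraries alone and could only be called higher. Gbp7 at 47.3, 335 and 84.9 (adjusted p = 0.202) and Gbp3 at 16.7, 102 and 25.8 (adjusted p = 0.387) had the same order of libraries. Isg15, at 36.1, 139 and 19.7, had the control between the Dox libraries. Ifitm3 measured 1668, 1110 and 1000 and Bst2 317, 340 and 223. The median of the members was -0.03, beside 0.05 for all genes, with 2 of 18 members of at least 30 UMIs below the control in both Dox libraries, beside 36.4%, and 4 above, beside 33.3%. The 2 Dox libraries differed from each other: all 18 were lower in Dox replicate 2 than in Dox replicate 1, beside 50.7% of all such genes. Without Dox replicate 1 the median was -0.87, and without Dox replicate 2 it was 0.56. Neutrophil markers summed to 13619, 22461 and 15095 plain CPM in this class, and the epithelium list, mainly through Lcn2, to 853, 2546 and 2940 with 29 of 34 markers at 0 in the control. Their part in these values was not tested.

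Pericytes had 3 control cells, and the fit was not run. On plain CPM, 16 of 19 members with at least 30 UMIs were below the control in both Dox libraries and 1 was above, beside 46.8% and 49.2% of all genes. The 28 members summed to 1706, 467 and 272 plain CPM. The control also had the highest sum in epithelium and stroma, given above, in glia (497, 155 and 162) and in supporting cell-like cells (608, 227 and 179), but not in macrophage-like cells (655, 1425 and 387).

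**Figure D4:**
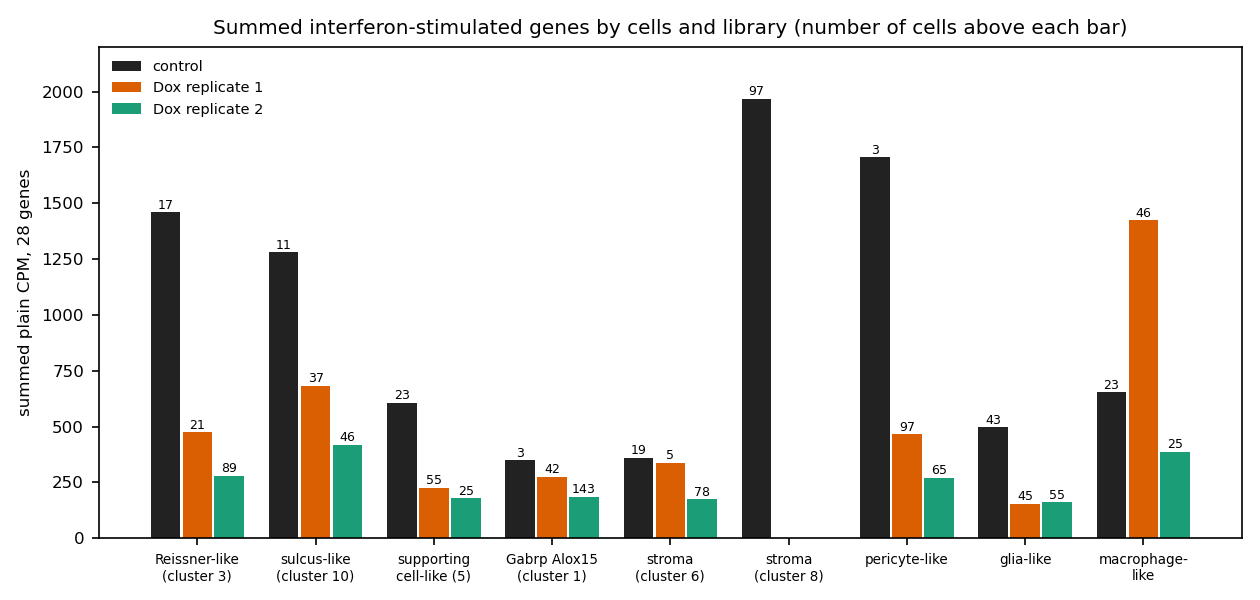
Bars give the summed plain CPM of the 28 members (without Ifitm3, Bst2 and Ifi27) by cluster or class (horizontal axis) and library, with the number of cells above each bar. The control bar is the highest in the Reissner-like cluster 3 (1460 against 474 and 280) and the sulcus-like cluster 10 (1282 against 683 and 420), stands at 361 against 338 and 176 in stromal cluster 6, and is 1968 in cluster 8, which has no Dox cells, while Dox replicate 1 is the highest in macrophage-like cells (1425).

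The rest of the pathway was read from further lists of genes. None of the 11 interferon ligands could be tested: over all kept cells they had 1, 3 and 3 UMIs in total, and a count of 0 allows up to 0.572, 0.150 and 0.0904 CPM for a ligand in the 3 libraries. Of the receptors and their kinases 9 were tested in epithelium and 0 were called by edgeR (3 at an unadjusted p of 0.05 or less). The lowest p-values belonged to Il10rb at 42.5, 22.2 and 21.1 (adjusted p = 0.0517), Ifnar2, a subunit of the type I receptor, at 74.9, 44.1 and 41.7 (adjusted p = 0.0564), and Ifngr1 at 34.5, 16.1 and 21.3. Feedback genes (0 of 6 called, median -0.27) and genes of nucleic acid sensing (0 of 10 called, median -0.03) gave no call, with the endosomal RNA receptor Tlr3 at 46.0, 24.4 and 15.0 (adjusted p = 0.0777).

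Of 57 other interferon-stimulated genes, 38 were tested in epithelium, 7 fell and 0 rose, and their median was -0.99. Over all 13180 genes tested, 4.45% were called lower and 5.85% higher, and the median was 0.06. As with the members, a gene that passed the filter through the control alone could only fall. Ifit3b and Phf11d, given here, passed in this way. Ifi27l2a had the largest gap in level, from 1174 to 32.3 and 10.2 (log2 difference -5.83, adjusted p = 0.00514). Ly6e, a surface protein, measured 1749, 543 and 696 (adjusted p = 0.00833). Shisa5 (110, 50.3 and 42.1), Ube2l6, the conjugating enzyme for ISG15 (18.5, 4.05 and 2.51), Phf11d (11.0, 0.392 and 0.726) and Slfn2 (16.5, 1.57 and 3.56) fell as well, besides Ifit3b. In stroma 0 of the 43 tested were called by edgeR (28 at an unadjusted p of 0.05 or less), with a median of -2.08, Ifi27l2a at 180, 0 and 3.19 and, from the sensing list, Zbp1 at 101, 15.2 and 7.10. In glia Ifi27l2a (102, 1.35 and 7.35, adjusted p = 0.00144) and the receptor subunits Ifnar2 (164, 59.2 and 62.5, adjusted p = 0.0206) and Il10rb (70.1, 18.8 and 16.5, adjusted p = 0.03) fell, beside 2.89% of all genes called lower there. Macrophage-like cells had 2 rises among 39 other interferon-stimulated genes, beside 0.62% of all 7742 genes called higher there. They were Gbp4 with 0, 56 and 9 UMIs (adjusted p = 0.0427) and Gbp8 with 0, 90 and 7 UMIs (adjusted p = 0.0395), both close paralogs of Gbp2. Both passed the filter through the Dox libraries alone and could only be called higher. In Dox replicate 1 they measured 76.8 and 123 CPM. In Dox replicate 2 they measured only 13.6 and 10.6, beside 8.4 plain CPM for 3 UMIs in the control. In supporting cell-like cells Trim25, which activates RIG-I, rose from 21.7 to 65.8 and 65.6 (adjusted p = 0.0347). It was 1 of 5 sensing genes tested there, beside 6.57% of all genes called higher. These genes were not members, and each adjusted p is from edgeR's quasi-likelihood test.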

How the data were processed

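The authors deposited 1 matrix of raw UMI counts for each library (10x 3' chemistry version 3.1, per the labels' protocols). The submitters' processing notes name Cell Ranger 5.0, STAR, Seurat 3.2.2 and the mm10/GRCm38 genome, whereas the matrix headers name software version 3.1.0. Counting parameters and any doublet removal are not given there, and no doublet caller was run. Total counts per library were 5436731, 20309102 and 33385927, and the lowest barcode held 500 UMIs.

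From these counts, barcodes under 200 genes or above 20% mitochondrial UMIs were dropped. Where another library held the same barcode at 10-fold or more UMIs, the shallower copy was left out. Cells were clustered with scanpy 1.11.5 and leidenalg 0.10.2 (2000 variable genes, 30 components, 15 neighbours, resolution 1). A cluster took the class with the most markers, at least 3, among its top 50 genes by fold (detected in 25% of its cells or more), a scoring rule set after seeing the data. Clusters of low depth for their library with none of these among the top 10, or without 3 markers, stayed unnamed, 6 in all. Clustering without the members and pathway genes left 1683 of 1803 cells in the same class.

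Counts were summed per class and library and tested with edgeR 4.0.16 in R 4.3.3 (filterByExpr, TMM, quasi-likelihood F test, Benjamini-Hochberg over all genes tested, threshold 0.05, 1 residual degree of freedom). The lone control was assumed to vary like the Dox libraries, so the p-values measure the spread between 2 pooled libraries, and nothing in the labels says which animals they came from. Classes with at least 20 cells in every library were tested and fits for stroma and for the interaction were added below that minimum. The procedure was tested on counts simulated for epithelium with 1 spread for all genes. It called 9 of 81 genes changed 2-fold (11.1%), 43 of 56 changed 4-fold and 55 of 63 changed 8-fold. In that simulated setting most 2-fold changes were missed, and other classes were not simulated.

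Plain CPM, UMIs per 1000000, divide by the class total in a library, and the TMM scale also applies edgeR's factor. Limits for a count of 0 use 3 counts, and cover counting error only. Alternatives were total count and DESeq2 size factor scaling, DESeq2 1.42.0, edgeR's legacy fit, no count filter, other cell filters and clusterings, thinning to 1000 UMIs, per-cell means and leaving out a library.

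The members, their roles, the pathway lists and the markers were chosen with earlier results of these data known. All members are accounted for, and 1 pathway list is not reported here. Values per library are given for members called, for the 6 of highest mean level in epithelium and stroma (3 elsewhere), for up to 4 with the largest difference and at least 30 UMIs, and for up to 3 pathway genes per list by p; a few others were named after their values were seen. Gene positions come from GENCODE on GRCm38 and promoter sequences from RefSeq on GRCm38.p6.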

Additional observations from a re-analysis of the deposited data

Results flagged for a closer look

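Some members moved in opposite directions in different cells. Values are log2 of the mean of both Dox libraries over the control in plain CPM, and in each case named both Dox libraries lay on the same side of the control. These differences between cell classes were not tested.

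Bst2 was higher with Dox in glia (0.84) and in supporting cell-like cells (0.41) and lower in Reissner-like cluster 3 (-2.14) and sulcus-like cluster 10 (-0.66). Ifitm3 was higher in supporting cell-like cells (1.10, from 3 control UMIs) and lower in macrophage-like cells (-0.72), cluster 3 (-1.59) and cluster 10 (-0.84). Irf1 was higher in cluster 3 (0.16) and lower in cluster 10 (-0.73). Ifi35 was higher in glia (0.22) and macrophage-like cells (0.47) and lower in cluster 10 (-0.65). Ifi44 was higher in cluster 10 (1.40) and lower in cluster 3 (-2.48). Gbp7 was higher in macrophage-like cells (2.09) and lower in cluster 3 (-1.13) and cluster 10 (-0.95). Over the whole epithelial class the control held only 27 UMIs of Ifi44, 33 of Irf1 and 28 of Gbp7. Their values in single epithelial clusters therefore rest on few control counts.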

How the results depend on the processing

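In epithelium 0 members were called higher in any setting tried, and the members' median stayed between -2.42 (without Dox replicate 1) and -1.58 (without Dox replicate 2) except after thinning to 1000 UMIs per cell, when it was -0.80 with 8 members tested. Against 15 calls (10.3% of all genes), 0 were made without the count filter (0%) and 0 after thinning (6.39%). Clusters built without members and pathway genes gave 4 (3.19%), and each library clustered alone gave 7 (6.02%). The other settings gave 12 to 17 (7.65% to 18.8% of all genes). In glia 2 members were called, beside 4.89% of all genes. Total count scaling gave 4 (10.2% of all genes), the strict cell filter 4 (9.38%) and clustering each library alone 4 (9.07%, 3 lower and Bst2 higher). Without the count filter 1 was called (1.36%), with DESeq2 0 (2.21%) and after thinning 0 (7.97%). The glial median of -0.85 moved to -1.73 without the filter, -0.14 after thinning and -0.39 with per-cell means. With a Dox library left out it lay between -1.16 and -0.75. The macrophage call was lost (0) without the filter (0% of all genes called), with DESeq2 (0.284%) and after thinning (0%). Supporting cell-like cells (3 calls, 9.95% of all genes) had 6 with total count scaling (21.8%) and 1 with DESeq2 (3.1%). In stroma (0 calls, 0% of all genes) DESeq2 made 3 (0.538%) and the legacy fit 23 (9.38%). The stromal median of -2.94 was -2.36 with each library clustered alone, -1.40 after thinning and -0.69 for the 23 members counted in cluster 6. With a Dox library left out it lay between -3.28 and -2.88. The interaction had 3 calls with the legacy fit, beside 1.96% of all genes. Changes of sign were as follows, and their cause was not tested. Bst2 in stroma was 0.0364 with DESeq2 size factors, 0.14 without the filter, 0.0421 with DESeq2, 0.0317 with clusters built without members, 0.0306 at resolution 0.5, 0.29 with each library clustered alone and 0.16 with shared barcodes kept. In epithelium Cmpk2 was -0.021 with total counts, Ifi35 was 0.0039 without the filter, 0.054 at resolution 2 and 0.85 thinned, and Isg15 was 0.35 thinned. Ifitm3 in glia was -0.0089 with total counts and -0.14 thinned, and Lgals3bp in supporting cell-like cells was -0.14 with total counts. No paired analysis was possible because the control has 1 library and shares fewer than 2 replicate numbers with the Dox group. Settings not run for lack of cells were the strict filter and the removal of cells of little Malat1 in macrophage-like cells, the strict filter in stroma, and every test in pericytes and endothelium. Depth limits the scarce members: Gbp2, with 2, 2 and 3 UMIs in epithelium, could not be tested.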
